A study of Mus musculus with 28 samples.

Results

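The neuronal nicotinic receptor subunit genes Chrna2, Chrna3, Chrna4, Chrna5, Chrna6, Chrna7, Chrnb2, Chrnb3 and Chrnb4 were followed through the mouse brain at 3 weeks of age. They were chosen by name as the subunits of the brain's nicotinic acetylcholine receptors, and make up 9 of the 20660 gene symbols named on the array. Chrna4, Chrna7 and Chrnb2 were treated as broad subunits and the other 6 as restricted ones, a grouping set for this work and not taken from the measured levels. Frozen brains of 3 male C57BL/6J mice, 1 per sectioning plane, had been cut whole into consecutive fractions, 12 in the coronal, 6 in the horizontal and 10 in the sagittal series, and every fraction went onto 1 single-colour (Cy3) array. The labels name no treatment and give all mice 1 strain, sex and age, so fractions of a series differed in position. In the coronal and sagittal series the array slide changed along with position, and between series the plane and the mouse cannot be told apart. The labels and the study give different fraction thicknesses, and coronal fraction 12 is labelled as pooled with the one after it, so positions are given as fraction numbers.

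Nicotinic receptors are acetylcholine-gated cation channels built from a ring of subunits around a central pore. In the brain, alpha4 and beta2 form the common high-affinity receptor for nicotine, and alpha7 forms fast, calcium-permeable channels made of 1 kind of subunit. Alpha6 and beta3 join them mainly in the receptors of dopamine and other catecholamine neurons, alpha3 and beta4 dominate in autonomic ganglia and the medial habenula, alpha5 is an accessory subunit, and alpha2 has a narrow distribution in the rodent brain. Chrna5, Chrna3 and Chrnb4 are neighbours on chromosome 9, and Chrnb3 and Chrna6 on chromosome 8.

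The RefSeq promoter table (assembly GRCm38.p6) held 6 of the 9 genes, in 7 windows. Chrna2, Chrna6 and Chrnb3 are named only. The 250 bases before the gene start are shown for the pair that assembles into the common receptor, Chrna4 (chr2:181039178-181039427, minus strand) and Chrnb2 (chr3:89764633-89764882, minus strand), because both were measured in every fraction with differing profiles. They are also shown for the chromosome 9 neighbours Chrna3 (chr9:55026563-55026812, minus strand) and Chrnb4 (chr9:55048545-55048794, minus strand), because the first was well above background on 0 arrays and the second on all 28. Sequences run 5′ to 3′ on the strand of the gene, and capitals mark the GC box GGGCGG or its complement CCGCCC.
Chrna4: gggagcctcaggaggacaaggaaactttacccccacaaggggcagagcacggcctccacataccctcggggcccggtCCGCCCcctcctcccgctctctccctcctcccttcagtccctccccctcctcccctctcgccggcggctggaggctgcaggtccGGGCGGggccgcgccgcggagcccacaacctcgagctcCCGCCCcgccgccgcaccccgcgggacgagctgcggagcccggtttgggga
Chrnb2: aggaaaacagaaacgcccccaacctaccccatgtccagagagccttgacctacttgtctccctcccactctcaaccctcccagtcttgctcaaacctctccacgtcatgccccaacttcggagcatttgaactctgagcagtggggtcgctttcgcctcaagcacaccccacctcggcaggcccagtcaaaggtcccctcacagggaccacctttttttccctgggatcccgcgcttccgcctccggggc
Chrna3: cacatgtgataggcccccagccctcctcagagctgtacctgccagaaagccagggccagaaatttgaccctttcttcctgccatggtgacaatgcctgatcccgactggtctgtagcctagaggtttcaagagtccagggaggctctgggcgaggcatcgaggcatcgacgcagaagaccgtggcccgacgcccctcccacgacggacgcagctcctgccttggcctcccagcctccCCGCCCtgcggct
Chrnb4: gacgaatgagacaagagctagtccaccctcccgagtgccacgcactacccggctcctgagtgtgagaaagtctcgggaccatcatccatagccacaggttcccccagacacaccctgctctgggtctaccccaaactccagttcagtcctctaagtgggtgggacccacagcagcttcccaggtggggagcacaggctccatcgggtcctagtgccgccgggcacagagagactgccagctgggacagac
The window of Chrna4 held 3 GC boxes and 24 CpG dinucleotides at 74.4% GC. The window of Chrnb2 held 0 GC boxes and 10 CpG dinucleotides at 59.6% GC. Between the neighbours, Chrna3 had 1 GC box at 63.2% GC and Chrnb4 had 0 at 61.2% GC. The motif TATAAA, searched on both strands, was in 0 of these 4 windows. Over 32851 promoter windows of the same length, 32.7% held a GC box on either strand and 12.4% held TATAAA, and the median GC content was 52.4%. These are matches of letters and were set against no binding data.

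Levels are on a log2 scale on which 0 is the 75th percentile of the processed signals on that array. Each subunit had 1 probe, and levels of different probes are not compared. Feature Extraction marks a spot as well above background, and a probe without that mark has only an upper bound. Between 24822 and 34240 probes per array were well above background, and the 75th percentile of the signal lay between 135 in sagittal fraction 1 and 574. The median of all probes relative to the 75th percentile ran from -4.14 to -2.53, with the highest values in horizontal fraction 6 (-2.79) and sagittal fraction 9 (-2.53). Known regional genes gave the direction of the axes. Pcp2 of Purkinje cells was at 8.67, 8.92 and 8.63 in coronal fractions 1 to 3, and Omp of olfactory sensory neurons at 7.02 and 7.04 in fractions 11 and 12. The 5 cortical markers had their highest summed level in horizontal fraction 1 and the 6 pituitary markers in horizontal fraction 6. A fraction holds all its cells, so fewer cells of a type and less RNA per cell cannot be told apart. No position had a second array.

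Of the 9 subunits, 6 were measured well above background somewhere in all 3 series, against 58.2% of 55681 probes. Chrna4, Chrnb2, Chrna2 and Chrnb4 were well above background on all 28 arrays, against 38.7% of probes, and Chrna6 and Chrna7 followed with 26 and 20 arrays. The others were dim. Chrna5 was well above background on 3 arrays, Chrnb3 on 2 and Chrna3 on 0. By the weaker mark for a signal that is positive and significant over the local background, Chrna3 counted on 17 arrays, Chrna5 on 19 and Chrnb3 on 12. Both groups held subunits measured everywhere and subunits that were not. Among the broad subunits 2 of 3 were measured on all arrays (range 20 to 28 arrays), and among the restricted ones 2 of 6 (range 0 to 28).

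**Figure D1:**
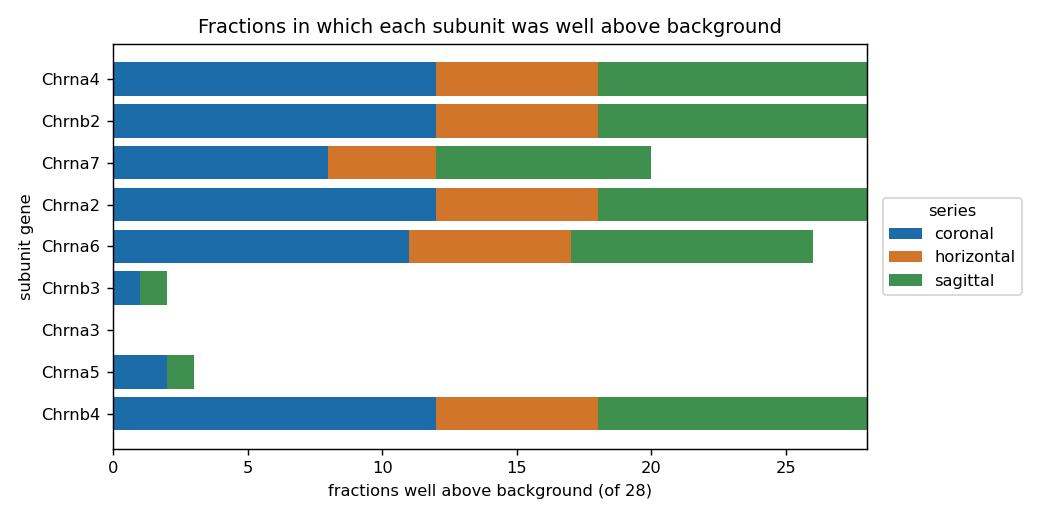
Number of fractions, of 28, in which the probe of each subunit was well above background, stacked by series. Chrna4, Chrnb2, Chrna2 and Chrnb4 reach 28, Chrna6 reaches 26, Chrna7 reaches 20, and Chrna5, Chrnb3 and Chrna3 stay at 3, 2 and 0.

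Chrna4, the alpha subunit of the common high-affinity receptor, was highest in coronal fraction 5, horizontal fraction 5 and the midline sagittal fractions 5 and 6. In the coronal series its level had a lowest value of -2.91 (fraction 12), a median of -0.70 and a highest value of 0.50 (fraction 5), a 10.6-fold span. Fractions 5 and 6 differed by less than the residual SD of 0.44 around the fitted curve, and the level fell fraction by fraction from 6 to 12. In the horizontal series it ran from -2.11 (fraction 1) through a median of -1.48 to 0.04 (fraction 5), a 4.43-fold span. In the sagittal series it ran from -2.99 (fraction 1) through a median of -1.10 to 0.42, with the same highest value to 2 decimals in the midline fractions 5 and 6, a 10.7-fold span. Toward the sides it was low, at -2.49 in fraction 2 and -2.93 in fraction 9, and the outermost fractions 1 and 10 differed by 1.96.

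Chrnb2, the beta subunit that pairs with alpha4, had a flatter profile. Its coronal level ran from 0.76 (fraction 10) through a median of 1.17 to 2.31 (fraction 3), a 2.95-fold span. The highest coronal levels were in fractions 3 and 2 (2.31 and 1.86), at the Purkinje cell end, where Chrna4 was at -0.62 and -0.78 against its own highest level of 0.50. The horizontal level ran from -0.54 (fraction 1) through 0.83 to 1.29 (fraction 4), a 3.55-fold span, and the sagittal level from -0.59 (fraction 1) through 0.82 to 1.53 (fraction 6), a 4.35-fold span. In both of these series the outer fractions were the low ones. Over all 28 fractions the profiles of Chrna4 and Chrnb2 had a Pearson r of 0.67, with 0.92 in the sagittal, 0.64 in the horizontal and 0.42 in the coronal series. These values describe fractions that share arrays and neighbours within 1 brain. Scaled to the array median instead, the value over 28 fractions was 0.78.

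Chrna7, which forms receptors of its own, was dim at both ends of the coronal series. It was not well above background in fractions 1, 2 and 3 (-5.18, -4.67 and -4.86) and reached -2.26 in fraction 9, at least 3.60-fold higher than in fraction 1, with a median of -3.19. It was well above background in fractions 4 to 10 and 12, with fraction 12 at -4.32, and not in fraction 11 (-4.07). Along the horizontal axis the 4 inner fractions lay between -3.26 and -3.03, and fractions 1 and 6 were not well above background (-3.83 and -4.22). Along the sagittal axis it ran from -3.90 (fraction 9) through a median of -3.05 to -2.40 (fraction 3), and fractions 8 and 9 were not well above background. Its probe was printed 10 times per array, so the spread between spots of 1 array could be read. On the 20 arrays where it counted as measured, the SD of the repeated spots was 0.052 to 0.291 log2, with a median of 0.192.

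**Figure D2:**
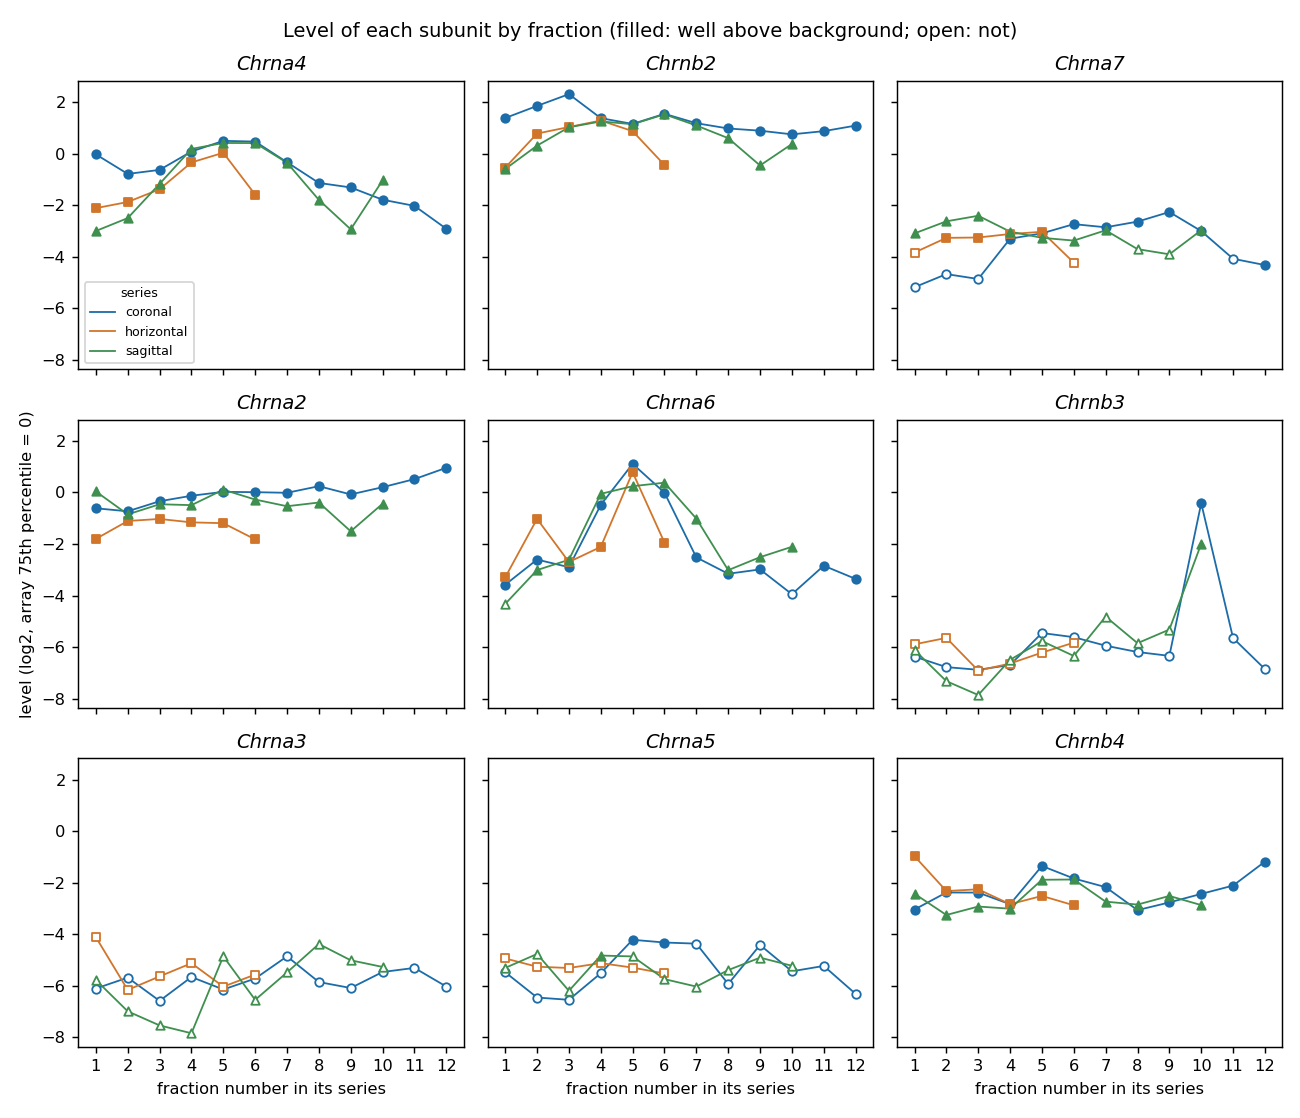
Level of each subunit (y axis, log2 with the 75th percentile of the array at 0) by fraction number (x axis) in the coronal, horizontal and sagittal series, with filled points well above background and open points not, levels of different probes not being comparable. Chrna4 and Chrna6 rise to fractions 5 or 6 in all 3 series, Chrnb2 and Chrna2 vary less, and Chrnb3 leaves the dim range only in coronal fraction 10 and sagittal fraction 10.

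Chrna2, known for scattered interneurons and a few nuclei, was measured in every fraction. Its coronal level ran from -0.73 (fraction 2) through a median of 0.00 to 0.96 (fraction 12), a 3.22-fold span, with the 2 highest values, 0.52 and 0.96, in fractions 11 and 12. Of the 3 olfactory sensory neuron markers, Omp and S100a5 rose toward these fractions, and Cnga2 was at -0.94 and -1.24, within its narrow coronal range. The horizontal levels lay between -1.82 and -1.03 (median -1.17), and all 6 were below the whole coronal range. The sagittal levels lay between -1.51 and 0.11 (median -0.45). The part of olfactory tissue in this rise was not tested.

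Chrna6, a subunit of receptors on dopamine neurons, had a wider span than Chrna4, Chrnb2, Chrna2 and Chrnb4 in every series. Its coronal level ran from -3.95 (fraction 10, not well above background) through a median of -2.87 to 1.11 (fraction 5), at least 24.4-fold against the upper bound of fraction 10. The next highest coronal fractions were 6 (-0.01) and 4 (-0.48), and all the others were at -2.52 or below. The lowest coronal level of Chrna6 that was well above background was -3.58 in fraction 1, so fraction 10 was not shown to be the lowest. Its horizontal level ran from -3.29 (fraction 1) through -2.03 to 0.79 (fraction 5), a 16.9-fold span, with a second high value of -1.02 in fraction 2. Its sagittal level ran from -4.32 (fraction 1, not well above background) through -2.31 to 0.38 (fraction 6), at least 18.8-fold, and fractions 4, 5 and 6 lay together at -0.05, 0.24 and 0.38. Its horizontal range, measured in every fraction, was larger than that of 96.8% of the tested probes.

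The dopamine transporter gene Slc6a3 had its highest level in the same fraction as Chrna6 in each series. It was at 3.73 in coronal fraction 5, at 3.82 in horizontal fraction 5, and at 2.89, 2.30 and 2.98 in sagittal fractions 4 to 6. In coronal fraction 4 and horizontal fraction 2, further high fractions of Chrna6, it was at -2.91 and -2.44. Of the 7 dopamine neuron markers, 6 were measured in all 3 series (En1 was not), and the log2 of their summed signal ran from 3.89 to 6.82 in the coronal, 2.53 to 5.77 in the horizontal and 2.97 to 5.60 in the sagittal series. The summed level was highest in coronal fraction 12, where Th stood at 6.63 and Slc6a3 at 1.96 while Chrna6 was at -3.35. Over 28 fractions r with Chrna6 was 0.72 for Slc6a3, 0.78 for the vesicular monoamine transporter gene Slc18a2, 0.77 for Ddc, 0.40 for Pitx3, 0.36 for Th and -0.08 for Nr4a2. Pitx3, a transcription factor gene of midbrain dopamine neurons, was highest in coronal fraction 5 (-1.33) and horizontal fraction 5 (-2.61), as Chrna6 was, but in sagittal fraction 1 (-2.03). Nr4a2, a nuclear receptor gene also active outside dopamine neurons, was highest in sagittal fractions 2 and 9 (3.59 and 3.03) and stood at 1.38, 1.34 and 1.16 in fractions 5 to 7, and its highest coronal level was in fraction 9 (2.91). The summed level of the 4 noradrenaline neuron markers was highest in coronal fraction 4 (3.18), horizontal fraction 5 (1.53) and sagittal fraction 6 (2.32). These are descriptions over neighbouring fractions of the same arrays. The part of dopamine or noradrenaline neuron content in the Chrna6 profile was not tested.

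Chrnb3, the neighbour of Chrna6 and its usual partner, was mostly too dim for its profile to be read. It was well above background only in coronal fraction 10 (-0.42) and sagittal fraction 10 (-1.99). All the other 26 levels lay between -7.86 and -4.82 and were not well above background, including coronal fraction 5 at -5.45. By the weaker mark it also counted in coronal fractions 4 to 7, horizontal fractions 2 and 5 and sagittal fractions 4 to 7, which hold the fractions where Chrna6 was highest. The other dim subunits, Chrna3 and Chrna5, both had this mark in coronal fractions 4 to 7 and horizontal fraction 2. At least 1 of them had it in horizontal fraction 5 and sagittal fractions 4 to 7. Both also had it on more arrays in all (17 and 19, against 12 for Chrnb3). With the other fractions at their upper bounds, the coronal value was at least 7.78-fold higher than every other coronal fraction and the sagittal value at least 2.05-fold higher than every other sagittal one. In coronal fraction 10 Chrna6 was not well above background (-3.95). In that fraction 406 probes (0.729% of all) were well above background and in no other coronal fraction, in a range of 226 to 593 over the 12 fractions. The number was 294 for sagittal fraction 10, in a range of 90 to 2569 over the 10 fractions, and 5 probes were in both sets. With other fractions at their upper bounds, 31 probes rose in coronal fraction 10 at least as much as Chrnb3, itself included, and 191 did in sagittal fraction 10. The cutoffs were the rises of Chrnb3 itself, so its place in both sets was fixed in advance. No other probe was in both, and the overlap says nothing about Chrnb3. Each value rests on 1 spot of 1 array, and a fault of single spots was not tested.

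**Figure D3:**
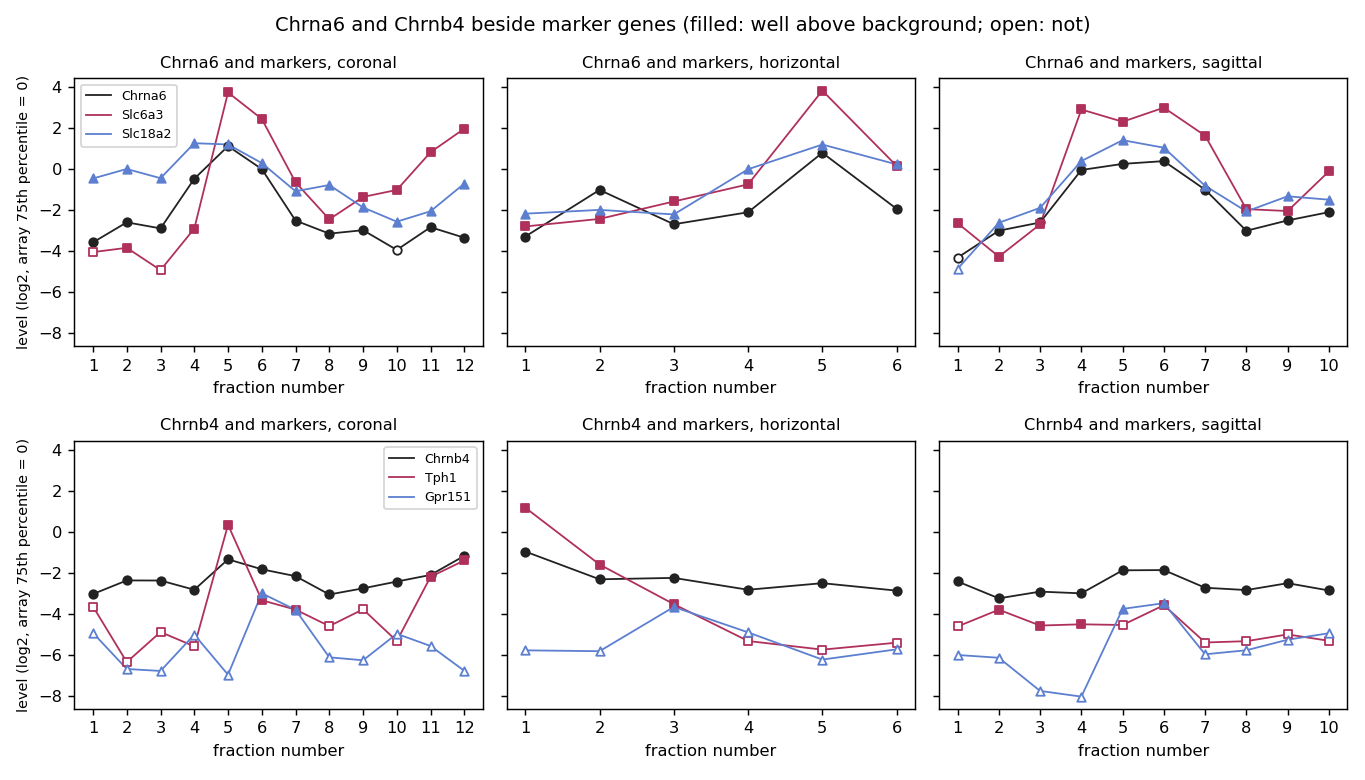
Levels (y axis, log2 with the 75th percentile of the array at 0) by fraction number for Chrna6 with Slc6a3 and Slc18a2 (upper row) and for Chrnb4 with Tph1 and Gpr151 (lower row), with filled points well above background. Chrna6 and Slc6a3 share their highest fraction in all 3 series, while the rise of Slc6a3 in coronal fraction 12 (1.96) has no counterpart in Chrna6 (-3.35).

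The 3 genes of the chromosome 9 cluster differed in whether they could be measured. Chrnb4, the beta subunit of the ganglionic and habenular receptor, was well above background everywhere. Its coronal level ran from -3.06 (fraction 8) through a median of -2.38 to -1.18 (fraction 12), a 3.69-fold span, with a second high value of -1.35 in fraction 5. Its horizontal level was -0.97 in fraction 1 and between -2.88 and -2.25 in the other 5, a 3.74-fold span. Its sagittal level ran from -3.25 (fraction 2) through -2.79 to -1.87 (fraction 6), with fraction 5 at -1.88 and all the others at -2.43 or below. The sagittal high values lay at the midline, in the fractions where the habenular gene Gpr151 was well above background (-3.77 in fraction 5 and -3.49 in fraction 6). Gpr151 was otherwise well above background in coronal fractions 6 (-3.01) and 7 (-3.81) and horizontal fraction 3 (-3.67), where Chrnb4 was at -1.84, -2.17 and -2.25.

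The highest levels of Chrnb4 lay elsewhere, beside the pineal marker Tph1, a tryptophan hydroxylase gene. Tph1 was at 0.33 in coronal fraction 5, -1.41 in coronal fraction 12 and 1.17 in horizontal fraction 1, its highest levels of the 28. The other pineal markers did not share all of these fractions. Sag, the arrestin gene of photoreceptors and pineal cells, was highest in coronal fraction 10 (-0.92), horizontal fraction 1 (-0.42) and sagittal fraction 1 (-0.78). Aanat, an enzyme gene of melatonin synthesis, was highest in coronal fraction 9 (0.56), horizontal fraction 1 (0.53) and sagittal fraction 1 (0.90) and was well above background in every fraction. Crx was well above background in coronal fraction 5 alone (-4.27). Within the sagittal series r between Tph1 and Chrnb4 was 0.24. All 4 pineal markers were well above background in at least 1 coronal fraction and 3 of 4 in the other series, where Crx was not. Their summed level was highest in coronal fraction 5 (1.60), horizontal fraction 1 (2.16) and sagittal fraction 1 (1.32), and ran down to -0.23, 0.12 and 0.13. All 5 habenular markers were measured in each series, with summed levels of 1.29 to 3.33, 2.30 to 2.75 and 2.25 to 3.24. Gng8 was highest in coronal fraction 11 (2.43), horizontal fraction 3 (1.24) and sagittal fraction 5 (1.41), and Lrrc55 in coronal fraction 12 (1.32), horizontal fraction 3 (-0.83) and sagittal fraction 5 (0.25). Nwd2 was highest in coronal fraction 6 (2.75), horizontal fraction 1 (2.64) and sagittal fraction 10 (2.81). Pou4f1, a transcription factor gene of several neuron types, was highest in coronal fraction 2 (1.34), horizontal fraction 6 (-0.61) and sagittal fraction 5 (0.61). Of the 5 habenular genes, 2 were highest in coronal fraction 6, 3 in horizontal fraction 3 and 3 in sagittal fraction 5. The part of pineal or habenular tissue in the Chrnb4 profile was not tested.

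Chrna5, the accessory subunit, was well above background at -4.21 and -4.32 in coronal fractions 5 and 6 and at -4.82 in sagittal fraction 4. Its other levels lay between -6.54 and -4.36. Chrna3, the alpha partner of beta4, lay between -6.58 and -4.86 in the coronal, -6.16 and -4.11 in the horizontal and -7.84 and -4.38 in the sagittal series, not well above background anywhere. On the same arrays the median of the 10928 probes that were never well above background ran from -7.80 to -5.03, and it was lowest in sagittal fractions 2, 3 and 4 (-7.00, -7.52 and -7.80), where Chrna3 was at -6.99, -7.54 and -7.84. The part of this shift in the Chrna3 profile was not tested, and no fold is given for it.

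Position was tested by fitting a smooth curve over the fraction number of a series in limma, with an F-test for the curve, over 32364 probes and with Benjamini-Hochberg adjustment. The residual around the curve is the only error, and it also holds sharp anatomy. The fit takes every level as measured, also those not well above background, which touches Chrna7 in all 3 series and Chrna6 in the coronal and sagittal ones, and, among other acetylcholine and receptor genes, Slc5a7 and Chrna10. Of the 6 subunits tested, 5 passed along the coronal axis, against 33.7% of all tested probes. Chrna7 had a fitted range of 2.83 log2 (adjusted p = 0.00116), Chrna4 of 2.95 (0.002), Chrna2 of 1.63 (0.00232), Chrna6 of 4.06 (0.0127) and Chrnb2 of 0.88 (0.0483), beside a median of 0.90 for all tested probes. Chrnb4 had a range of 1.74 and an adjusted p of 0.0682. It passed in limma in 1 of 19 alternatives, without fraction 4 (0.00537), where 26.9% of tested probes did, and its adjusted p rose to 0.548 in another. The curves were highest at fraction 5 for Chrna4 and Chrna6, at 8 for Chrna7, at 3 for Chrnb2 and at 12 for Chrna2. The coronal call of Chrnb2 was kept without fraction 1 or 5 and lost without any other single fraction (limma adjusted p = 0.0549 to 0.111). With the slide as an added term none of the 6 passed, against 0.745% of tested probes, and limma gave adjusted p-values of 0.0856 (Chrna7) to 0.597 (Chrna2). In fractions 3 to 10, which lay on 1 slide, Chrna4 (0.00896), Chrna6 (0.0169) and Chrna7 (0.0489) passed, against 12.9% of tested probes.

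Along the horizontal axis 1 of the 6 passed, against 15.8% of tested probes. This was Chrnb2, with a fitted range of 1.78 log2 (limma adjusted p = 0.0257) beside a median of 0.74 for all tested probes. The values for the other 5 were 1.84 for Chrna4 (0.184), 1.82 for Chrna6 (0.572), 1.60 for Chrnb4 (0.0672), 0.99 for Chrna7 (0.133) and 0.79 for Chrna2 (0.0896). The call of Chrnb2 was lost without fraction 1 (0.0701), 3 (0.0715), 4 (0.111) or 6 (0.0557). When arrays were scaled to their median, 5 of the 6 passed, all but Chrna6, and so did 59.8% of all tested probes.

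Along the sagittal axis 2 of the 6 passed, against 14.7% of tested probes. Chrna6 had a fitted range of 4.62 log2 (limma adjusted p = 0.0382) and Chrnb2 of 1.96 (0.0425), beside a median of 1.06. Chrna4 had a range of 3.71 and an adjusted p of 0.0593, and Chrna7, Chrnb4 and Chrna2 had ranges of 0.84, 0.63 and 0.57 (0.294, 0.707 and 0.753). The call of Chrnb2 was lost without any single fraction from 1 to 8 (0.0701 to 0.255), and that of Chrna6 without fraction 1, 2, 4, 5, 6 or 7 (0.0591 to 0.127). Chrna4 passed without fraction 9 (0.0185) or 10 (0.00518), where 38.8% and 47.1% of tested probes did. Under the slide as an added term Chrna6 was at 0.0653 and Chrnb2 at 0.0858, and 7.79% of tested probes passed.

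**Figure D4:**
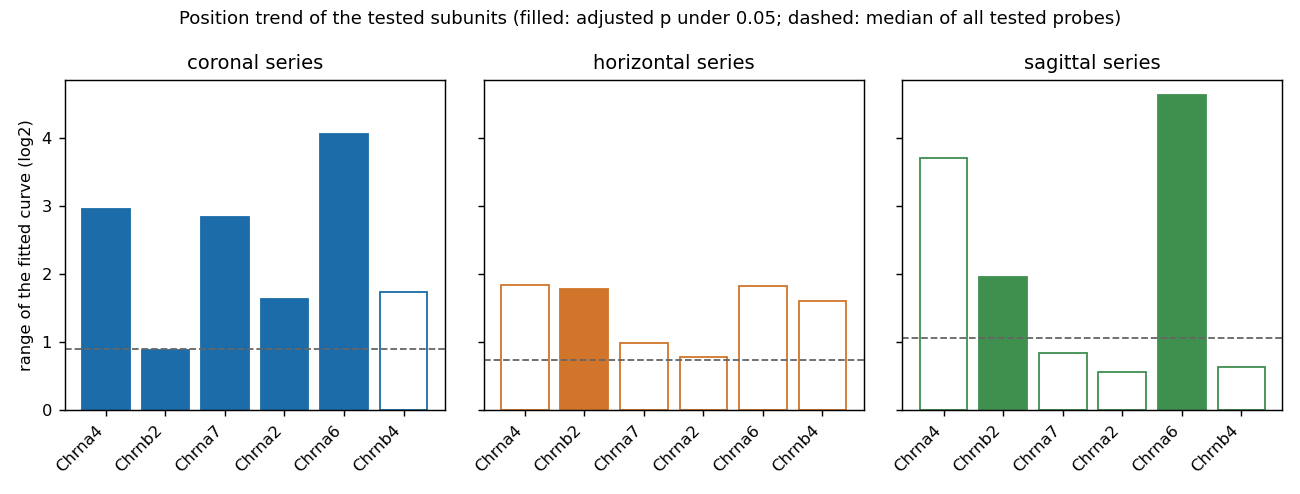
Range of the fitted curve (y axis, log2) for the 6 tested subunits in each series, with filled bars for adjusted p under 0.05 and a dashed line at the median of all tested probes. Chrna6 has the tallest bar in the coronal (4.06) and sagittal (4.62) series, and Chrnb2 is filled in all 3.

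Set side by side, the broad subunits passed in 5 of 9 tests (3 subunits in 3 series) and the tested restricted ones in 3 of 9, against 21.4% of the tests of all probes over the 3 series. Spans ran from lowest to highest fraction, with a lowest fraction not well above background at its upper bound. Their median was at least 1.85, 1.83 and 2.12 log2 for the broad subunits in the coronal, horizontal and sagittal series. It was 1.88, 1.90 and 1.62 for the 3 restricted subunits that were tested, and at least 1.17, 0.86 and 1.34 for all tested probes. The coronal 1.85 is that of Chrna7, bounded at fraction 1. Its measured levels in coronal fractions 12 (-4.32) and 9 (-2.26) lie further apart than 1.88. The coronal median of the broad subunits was therefore not below that of the restricted ones. The 3 restricted subunits that passed no filter, Chrna3, Chrna5 and Chrnb3, are not in these medians, and no test was made between the groups of genes.

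The level of each subunit was also compared between the 3 series, which are 3 mice in 3 planes. Of the 6 subunits 1 differed, against 1.63% of tested probes. Chrna2 was lower in the horizontal than in the coronal series by 1.36 ± 0.22 (SE) on the log2 scale, and its sagittal minus coronal difference was -0.48 ± 0.19 (SE), with a limma adjusted p of 0.00596 over 28 fractions. The 8 fractions of slide 1 held both planes, and there the 2 coronal levels (-0.73 and -0.61) lay above all 6 horizontal ones (-1.82 to -1.03). With the slide as a random block the adjusted p was 0.144. The horizontal and sagittal minus coronal differences of Chrnb2 were -0.78 ± 0.31 and -0.65 ± 0.26 (SE; adjusted p = 0.211 in the limma fit). For the other 4 the adjusted p lay between 0.685 and 0.880. Fractions of 1 mouse stand in for replicates in this fit, so the p-values describe these brains.

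The sagittal series passes through the left and the right side of the brain, so fractions 1 and 10, 2 and 9, and so on to 5 and 6 should lie at like distances from the midline if the cuts were centred. Fractions 1 to 4 were on slide 4 and fractions 5 to 10 on slide 3, so only the pair 5 and 6 shared a slide, and side and slide cannot be told apart in the other 4 pairs. The midline pair 5 and 6 differed by 0.00 for Chrna4, -0.14 for Chrna6 and -0.01 for Chrnb4 (fraction 5 minus 6, log2), against sagittal SDs of 1.34, 1.60 and 0.46. It differed by 0.11 for Chrna7, -0.38 for Chrnb2 and 0.38 for Chrna2, against SDs of 0.45, 0.72 and 0.46. Over the 5 pairs the root mean square difference was 0.97 for Chrna4, 0.61 for Chrnb2, and 0.40 each for Chrna2 and Chrnb4. Without the outermost pair it fell to 0.46 for Chrna4 and 0.58 for Chrna6. Fraction 1 of Chrna4 was 1.96 below fraction 10. Chrna6 was not well above background in fraction 1, and fraction 10 was at least 3.35-fold higher. For Chrna7, fractions 1 and 10, 4 and 7, and 5 and 6 differed by 0.12 or less, while fractions 9 and 8 were not well above background, and fractions 2 and 3 were at least 1.33-fold and 2.44-fold higher than they were. For Chrna2 and Chrnb4 the mirror differences were about as large as the SD over the 10 fractions, 0.46 for each. The same held for Chrnb2, with a root mean square difference of 0.61 and an SD of 0.72.

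**Figure D5:**
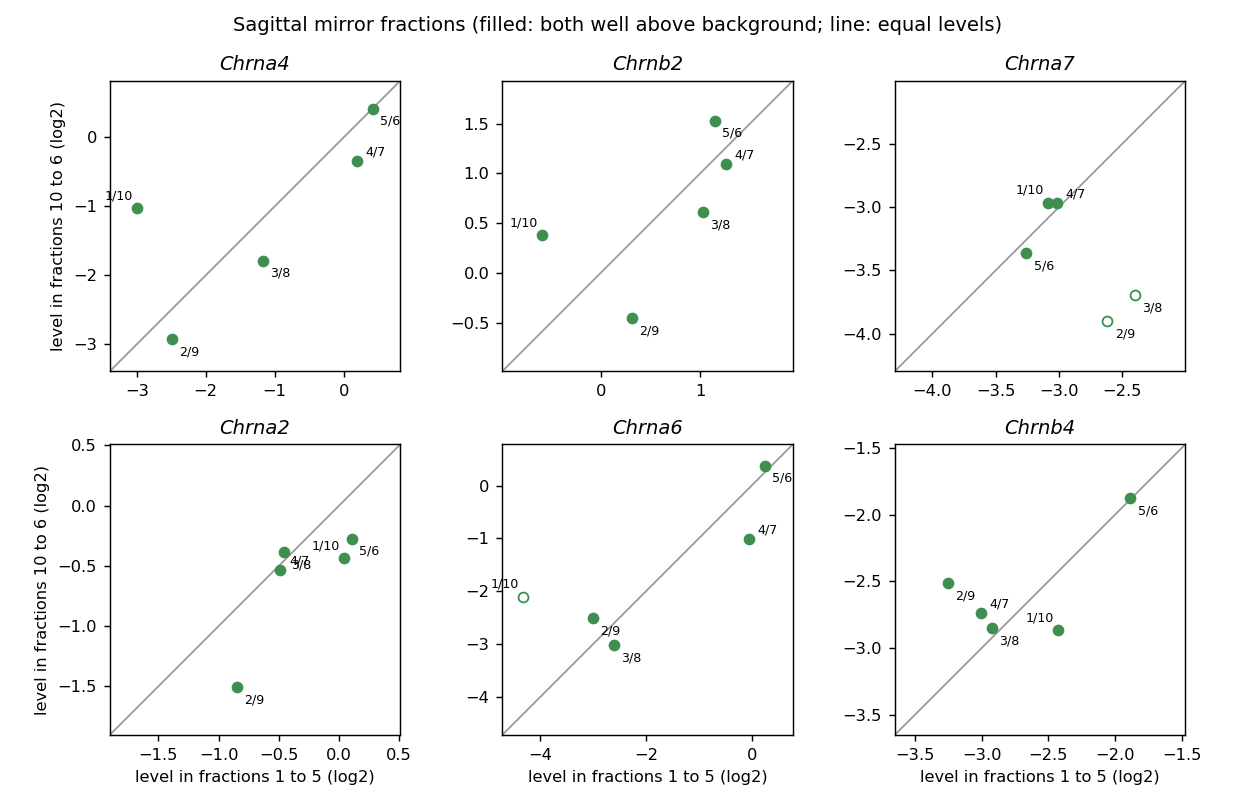
Level in sagittal fractions 10 to 6 (y axis, log2) against the level in the mirror fractions 1 to 5 (x axis, log2) for the 6 tested subunits, with each pair numbered and the line marking equal levels. The pair 5/6 of Chrna4 and Chrna6 lies on or near the line and 1/10 lies above it, the inner pairs differ by up to 0.62 for Chrna4 (3/8) and 0.96 for Chrna6 (4/7), and 2/9 and 3/8 of Chrna7 lie below the line at levels not well above background in fractions 9 and 8.

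For each of the 6 subunits well above background in at least 6 fractions, the 3 named genes with the most similar profile over the 28 fractions were listed by Pearson's r. These were Ache (acetylcholinesterase, r = 0.94), Ccdc184 (0.94) and Dgkq (0.93) for Chrna4, the Ache value being of another probe than the one used for the list below. They were Dgat2 (0.94), Hrh3 (0.94) and Slc25a14 (0.92) for Chrna7, of whose 28 levels 8 were not well above background. After quantile normalization these 3 values were 0.81, 0.74 and 0.62. For Chrnb2 they were Slc43a2 (0.96), Slc31a1 (0.92) and Cep120 (0.92). For Chrna2, whose level differed between the series, they were Slurp2 (0.87), Pcdh1 (0.84) and Tex44 (0.84). Taken series by series (coronal, horizontal, sagittal), r was 0.73, 0.70 and 0.85 for Slurp2, 0.61, 0.46 and 0.98 for Pcdh1, and 0.77, 0.74 and 0.80 for Tex44. For Chrna6 they were the forkhead factor genes Foxa2 (0.82) and Foxa1 (0.79) with Tal1 (0.80) between them, Foxa2 and Foxa1 being well above background on 8 and 7 arrays. For Chrnb4 the first 2 were Tph1 (0.73) and Otop3 (0.69), well above background on 12 arrays each. The points share arrays and scaling and are neighbours within 3 brains, so r is a description.

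Genes that make, move and break down acetylcholine had median fitted ranges of 2.54, 2.45 and 3.75 log2 in the coronal, horizontal and sagittal series. Along the coronal axis 4 of 6 passed the trend test (Slc18a3, Slc5a7, Chat and Ache), along the sagittal axis 4 (Slc5a7, Chat, Slc18a3 and Prima1) and along the horizontal axis 1 (Prima1), against 33.7%, 14.7% and 15.8% of all tested probes. Chat, the synthesising enzyme, ran from -1.99 (fraction 12) to 1.32 (fraction 3) in the coronal series, a fitted range of 3.21 log2 (limma adjusted p = 0.00381), and from -3.26 to 1.43 in the sagittal series (4.14, 0.0131). The vesicular transporter gene Slc18a3 had a coronal range of 4.94. No range is given for the choline transporter gene Slc5a7 in the sagittal series, where fraction 1 was not well above background (-6.14). In coronal fractions 10 to 12 Chat was at -1.29, -1.92 and -1.99, its lowest levels of that series, and Chrna4 was at -1.78, -2.02 and -2.91, also its lowest. In horizontal fraction 5, where Chrna4 was highest (0.04), Chat (0.70), Slc18a3 (1.72) and Slc5a7 (0.48) were highest too. In the sagittal series all of these were highest in fraction 4, and Chrna4 in fractions 5 and 6. Other coronal fractions parted the profiles. In coronal fractions 5 and 6, where Chrna4 was highest (0.50 and 0.48), Slc18a3 was at -0.60 and -0.64 and Slc5a7 at -1.98 and -2.06, each below its levels in fractions 4 and 7, and Chat was at 0.43 and 0.56.

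Among receptor assembly factors and Ly6 proteins, which help nicotinic receptors fold or bind to them at the membrane, 7 of 8 passed along the coronal axis, where 33.7% of all tested probes did, and 1 in each of the others, where 15.8% (horizontal) and 14.7% (sagittal) did. The widest coronal ranges were those of Lypd6b (3.55 log2), Lypd1 (3.08) and Lypd6 (2.98), and all 3 were lowest in fraction 12, the rostral end. Lypd6 lay between 1.32 and 1.88 in coronal fractions 1 to 10 and fell to -0.35 and -1.12 in fractions 11 and 12. The one that passed along the horizontal axis was Ly6e and along the sagittal axis Ly6h. Of the 5 muscarinic receptors, the G protein-coupled receptors for acetylcholine, 4 were measured (Chrm5 was not) and 4, 2 and 2 passed in the coronal, horizontal and sagittal series, beside the same shares of all tested probes. Chrm1 had a coronal range of 7.05 (limma adjusted p = 0.00424), with -3.93 in fraction 3 and 2.70 in fraction 9.

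The muscle-type and hair-cell-type subunits were mostly dim. Of 7, 2 were measured in all 3 series, Chrna1 and Chrna10. Chrna10 passed along the coronal axis (limma adjusted p = 0.000265), as 33.7% of all tested probes did. No fitted range is given for it, because its lowest levels have only an upper bound. It was not well above background in coronal fractions 1 to 4 and stood at 0.65 and 0.84 in fractions 11 and 12, beside the olfactory sensory neuron genes, whose 3 members had their highest summed level in fraction 11 (8.35). That sum was carried by Omp and S100a5 (7.02 and 7.61 in fraction 11), while Cnga2 stayed between -1.36 and -0.94 over the coronal series, with a fitted range of 0.16 (limma adjusted p = 0.812). The part of these cells in the Chrna10 profile was not tested. Of the 5 skeletal muscle markers 4 were measured (Ckm was not), with summed levels of -1.24 to 0.84 in the coronal series. Chrna10 also passed along the horizontal axis (limma adjusted p = 0.0262), as 15.8% of all tested probes did. There it was highest in fraction 3 at -1.92 and not well above background in fraction 1 (-5.18).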

How the data were processed

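RNA from 28 fractions of mouse brain was read on single-colour (Cy3) Agilent arrays. The authors deposited a background-subtracted intensity for each spot, made with Feature Extraction 10.5.1.1 per the file headers. Their deposited log2 table of 44721 probes matched the levels used here to within 0.01 after an array offset of at most 0.00758, except for 160 probes (Chrna7 among the members). Outlier spots were dropped, the remaining spots of each probe averaged, and arrays scaled to their 75th percentile on the log2 scale. The mark for well above background had to be set on 0.5 or more of a probe's spots. Probes measured in all 3 series in this sense, and with a value on every array, were tested (32364 of 55681). Names came from a RefSeq table (GRCm38.p6), which named 48.9% of probes. Genes with several probes are represented by their brightest on average.

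Trends were fitted in limma 3.58.1 (R 4.3.3) as natural splines with 3 degrees of freedom, or 2 for the horizontal series, and series differences over all 28 arrays. The threshold was an adjusted p of 0.05. Calculations were checked on simulated data with independent noise and straight-line rises. That check does not cover related neighbouring fractions, slide changes or peaked profiles. Folds against a fraction not well above background are lower bounds, against the higher of the probe's own level and the lowest level well above background on that array. Alternatives were the array median, quantile normalization, normexp (offset 50), no filter on dim probes, 1 spline degree fewer, leaving out each fraction, and the slide. Arrays have no counts, and their number limits the precision. The text names the 9 members, the 3 most similar genes of each (1 of those of Chrnb4 is not reported here), list genes that passed with the widest ranges, and Chat, Th, Slc6a3, Gpr151 and Pou4f1. En1, Crx, Ckm, Chrm5 and Chrna1 are named as exceptions to counts, and Pitx3, Nr4a2, Sag, Aanat, Gng8, Lrrc55, Nwd2 and Cnga2 as the rest of their marker lists, chosen after their values were seen. Members and lists were chosen with earlier results of these data known.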

Additional observations from a re-analysis of the deposited data

Results flagged for a closer look

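In 18 sets of 1 subunit's levels in 1 series, with 0.9 expected by chance, 2 held a value far from the rest for a series of that size. The level of Chrnb3 in sagittal fraction 10 was -1.99 and the nearest other was -4.82, a gap of 0.482 of the whole range of the series. All the other sagittal levels of Chrnb3 were not well above background, so both the gap and the range rest on levels that have only an upper bound. The level of Chrnb4 in horizontal fraction 1 was -0.97 and the nearest other was -2.25, a gap of 0.674 of the range. Series of more than 10 fractions were not examined in this way. Fractions are positions and not replicates, so a sharp local source and a fault of 1 array give the same gap, and which applies was not tested.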

How the results depend on the processing

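The coronal count of 5 subunits was 4 or 5 without any 1 fraction, 3 within the largest slide and 0 with the slide as an added term. The shares of all probes in those fits were 24.5% to 34.4%, 12.9% and 0.745%. The horizontal count of 1 was 5 with the array median, 2 with quantile normalization, 2 with normexp and 0 with 1 spline degree fewer, where 59.8%, 21.2%, 28.0% and 0.00309% of all probes passed, and ran from 0 to 1 without 1 fraction (0% to 17.8%). Leaving out fraction 3 or 4 left 0 limma calls among all probes (10053 and 7679 before adjustment at the 0.05 level). The sagittal count of 2 was 1 with the array median (1.04% of all probes), 0 with quantile normalization (8.12%), 4 without the filter on dim probes (Chrnb3 among them, 34.5%), 0 with the slide as an added term (7.79%) and 0 in fractions 5 to 10 alone, where limma gave 0 calls among all probes (2330 before adjustment). It ran from 0 to 3 without 1 fraction (0% to 47.1%), and leaving out fraction 1 left 0 limma calls (5955 before adjustment). The cause of these shifts was not tested. The coronal calls of Chrna4 and Chrna7 were kept in 18 of 19 alternatives, those of Chrna2 and Chrna6 in 17 and that of Chrnb2 in 6. The series difference count of 1 (Chrna2) was kept with the fraction number as a replicate block (1, beside 1.91% of all probes), although fractions of different planes share only a number, and fell to 0 with the slide as a random block (0.034% of all probes). The number of measured subunits was 9 in place of 6 by the weaker detection mark, which 85.6% of all probes met. The fraction of the highest level, over the subunits measured in 6 or more fractions, stayed the same in 45 of 54 comparisons. Each of the 9 subunits had 1 probe, so taking all probes of a gene repeated the fit and is not counted among the alternatives. Signal over background limits Chrna3, Chrna5 and Chrnb3. It also limits Chrna7 in coronal fractions 1 to 3 and 11, horizontal fractions 1 and 6 and sagittal fractions 8 and 9. For Chrna6 it limits coronal fraction 10 and sagittal fraction 1.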
